A study of Mus musculus with 18 samples.

Results

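Foxp3 and the 5 genes of the Ikaros family, Ikzf1 to Ikzf5, were followed through regulatory T (Treg) cells from 6 sites of the mouse. The members were listed by gene symbol, with earlier results of these data known. All 6 were found among the 55487 Ensembl gene IDs of the deposited tables. The 6 groups were Treg cells, given as CD4+ and Foxp3+, freshly sorted from peripheral blood, bone marrow, spleen, lymph node, lung and liver. Every group was wild-type and untreated, with 3 libraries a site and 18 in all, made from poly(A) RNA with a strand-specific kit. The labels do not state the strain, how Foxp3 was detected in the sort, the gates, the sex or age of the mice, or whether animals were pooled. Nothing in them says that the 3 libraries of a site came from separate animals or sorts, so the p-values measure the spread between these libraries, which may be technical.

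Foxp3 is a forkhead transcription factor on the X chromosome. It defines the Treg lineage, keeps the suppressive programme in place, and is needed for self-tolerance. The Ikaros family are zinc finger factors that bind DNA with N-terminal fingers and pair with each other through C-terminal fingers. Ikzf1 encodes Ikaros, a regulator of lymphocyte development found in many blood cells. Ikzf2 encodes Helios, which many Treg cells of thymic origin carry and which helps to keep them stable. Ikzf3 encodes Aiolos, best known in B cells and in differentiated T cells. Ikzf4 encodes Eos, a Foxp3 partner that recruits the corepressor CtBP1 to silenced genes. Ikzf5 encodes Pegasus, the most divergent and most widely expressed member.

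On the GRCm38 build, by the GENCODE M21 annotation, Foxp3 (ENSMUSG00000039521) lies on the plus strand at chrX:7573644-7595245. Ikzf1 (ENSMUSG00000018654) lies on the plus strand at chr11:11685003-11772926, and Ikzf3 (ENSMUSG00000018168) on the minus strand of the same chromosome at chr11:98464902-98546031. Ikzf2 (ENSMUSG00000025997) lies at chr1:69531214-69687245, Ikzf4 (ENSMUSG00000002578) at chr10:128630843-128645991 and Ikzf5 (ENSMUSG00000040167) at chr7:131388652-131410521, all on the minus strand. The TPM values are sums over whole genes and do not separate isoforms or exons.

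Start-site windows are shown because the Ikaros family is described as acting with Foxp3, so the letters of the family's binding core can be looked for at the Foxp3 start itself. RefSeq start sites on GRCm38.p6 were matched for 3 members, Foxp3, Ikzf1 and Ikzf5. Each window runs from 200 bases before the start through its first 20 transcribed bases, on the strand of the gene. The searched cores were TGGGAA for the Ikaros family and GTAAACA for forkhead factors, on both strands and with no overlap between them. Capitals mark a match, here TTCCCA, which is TGGGAA on the opposite strand. Its first base is base 4 of the Foxp3 transcript, counting the start as 1.
Foxp3 chrX:7579476-7579695: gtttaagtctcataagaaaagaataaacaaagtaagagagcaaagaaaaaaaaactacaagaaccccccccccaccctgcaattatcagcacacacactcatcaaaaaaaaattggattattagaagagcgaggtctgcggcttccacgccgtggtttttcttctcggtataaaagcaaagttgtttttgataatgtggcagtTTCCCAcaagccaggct
Ikzf1 chr11:11685725-11685944: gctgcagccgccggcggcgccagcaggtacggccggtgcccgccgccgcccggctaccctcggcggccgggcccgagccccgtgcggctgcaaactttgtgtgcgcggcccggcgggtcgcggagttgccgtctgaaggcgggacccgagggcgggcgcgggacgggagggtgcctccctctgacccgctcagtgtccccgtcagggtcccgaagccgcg
Ikzf5 chr7:131410459-131410678: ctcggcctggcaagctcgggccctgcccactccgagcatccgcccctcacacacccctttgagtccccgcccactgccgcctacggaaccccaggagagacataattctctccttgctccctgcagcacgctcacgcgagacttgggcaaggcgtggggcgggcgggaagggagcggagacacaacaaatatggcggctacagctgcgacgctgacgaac
The Foxp3 window was 40.5% G and C with 5 CpG pairs, against 78.6% and 34 pairs at Ikzf1 and 65.5% and 18 pairs at Ikzf5. The median over 32851 RefSeq windows of the same length was 53.2% and 5 pairs. The Ikaros core stood in 18.9% of those windows and the forkhead core in 2.73%. A second annotated start of Foxp3, a second start of Ikzf1 and the windows shown for Ikzf1 and Ikzf5 held neither core. A match is a run of letters, not a measured binding site.

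The deposited unit is TPM, a gene's share of all transcripts, corrected for transcript length and scaled to the same total in every library, so genes can be compared with each other and depth is unknown. Between 14314 and 19797 genes were above 0 in a library. All 5 markers of the sorted cells (Cd4, Cd3e, Il2ra, Ctla4 and Tnfrsf18) were above 1 TPM at every site, and summed to 761 TPM in blood and 1293 to 2852 elsewhere. RNA of other cell types was not even across sites. The sum of 14 myeloid markers ran from 26598 to 27376 TPM over the blood libraries and from 38261 to 38508 over bone marrow, with means of 55.1 TPM in lymph node, 235 in liver, 690 in spleen and 1675 in lung. The sum of 7 platelet markers averaged 2809 TPM in blood, 77.2 in bone marrow and at most 12.7 elsewhere, and that of 9 B cell markers 691 TPM in blood, 591 in spleen, 551 in bone marrow and 98.7 to 178 at the other 3 sites. The sum of 9 cytotoxic markers averaged 658 TPM in blood and 86.8 to 126 elsewhere. That of 6 conventional CD4 T cell markers averaged 79.3 TPM in bone marrow, 139 in liver, 151 in spleen, 166 in blood, 234 in lung and 284 in lymph node. The part of RNA from conventional CD4 T cells in the levels of the members was not tested on any scale. Lung epithelium markers, 6 in all, summed to 253 TPM in lung and at most 11.9 elsewhere. The 6 red cell markers were highest in liver, at 11468 TPM, and 2928 in blood. A list of 20 general T cell genes gave 5305 TPM for blood, 8122 for bone marrow, 8417 for lung, 9925 for liver, 11505 for spleen and 12248 for lymph node. In such bulk RNA, fewer cells of a type and less RNA per cell cannot be told apart.

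Each member's level differed among the 6 sites. With limma's F test on log2(TPM + 1), the adjusted p was 2.05e-10 for Ikzf2, 5.33e-10 for Foxp3, 1.03e-08 for Ikzf3, 2.98e-05 for Ikzf4, 0.000753 for Ikzf1 and 0.0225 for Ikzf5. Such a difference is common here, since 68% of the 16694 genes tested passed the same test. By the size of F, Ikzf2 stood at rank 554 and Foxp3 at rank 652 of the genes tested, and Ikzf5 at rank 10234. The ratio of the highest to the lowest site mean was 3.78 for Ikzf2, 3.02 for Ikzf3, 2.86 for Ikzf4, 2.69 for Foxp3, 2.30 for Ikzf5 and 2.08 for Ikzf1. Without lung replicate 1 the ratio of Ikzf5 was 1.64 and that of Ikzf1 2.15. The 6 genes did not share an order of sites, as the plot of levels by library shows.

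**Figure D1:**
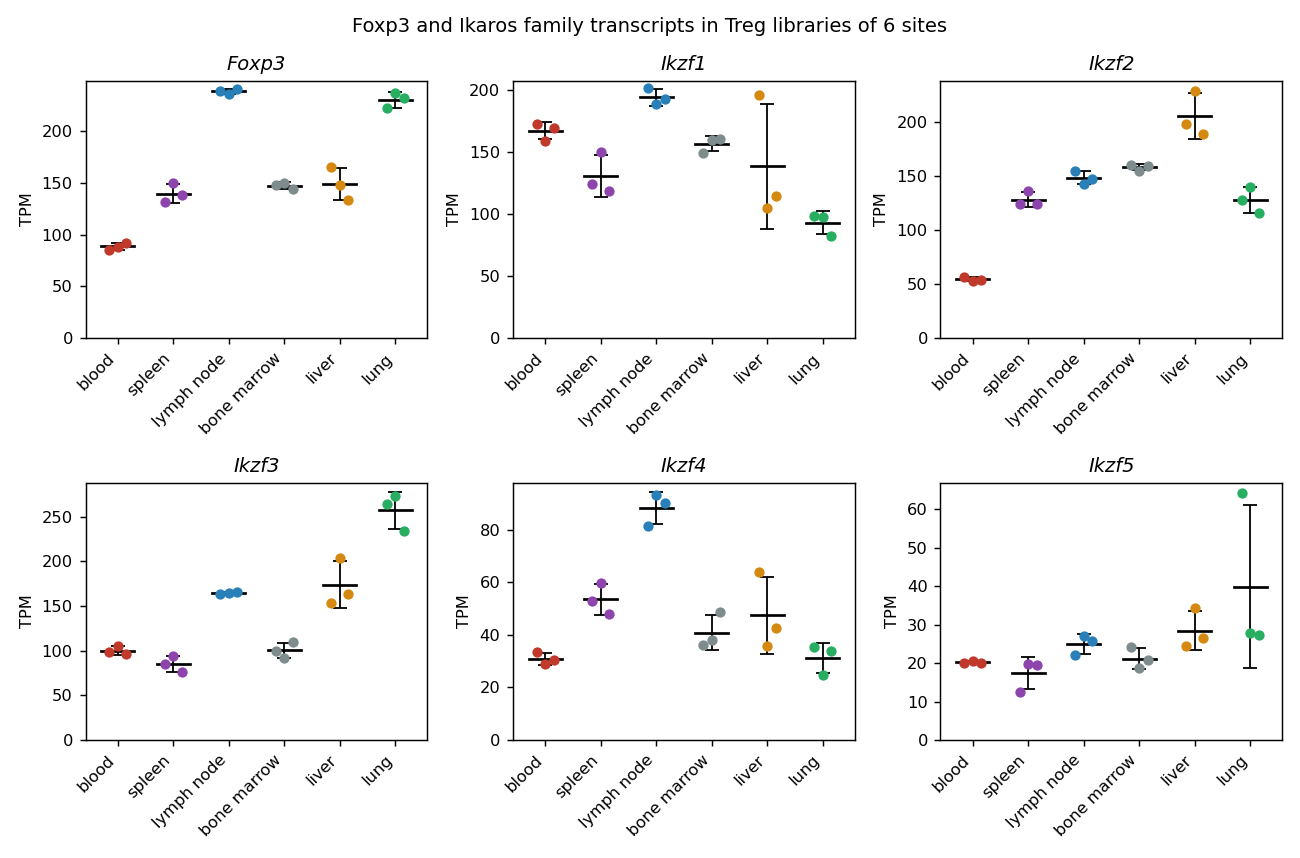
Level of Foxp3 and Ikzf1 to Ikzf5 in TPM (y axis, from 0, a separate scale for each gene) in the Treg libraries of 6 sites (x axis). Points are the 3 libraries, horizontal lines the mean and error bars the SD. Blood is lowest for Foxp3 and Ikzf2, lymph node is highest for Foxp3, Ikzf1 and Ikzf4, and 1 lung library of Ikzf5 stands far above the other 2.

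Foxp3, the lineage factor, was lowest in blood and highest in lymph node and lung. It measured 85.40, 88.38 and 92.16 TPM in the 3 blood libraries, 131.69, 149.48 and 137.93 in spleen, and 148.01, 150.34 and 144.23 in bone marrow. In liver it measured 165.18, 148.30 and 133.66 TPM, in lung 222.04, 237.00 and 232.28, and in lymph node 239.12, 236.17 and 240.34. No blood library reached the lowest library of another site, and no spleen, bone marrow or liver library reached lung or lymph node. The means were 238.5 ± 2.14 TPM (SD, n = 3) in lymph node, 230.4 ± 7.65 in lung, 149.0 ± 15.8 in liver, 147.5 ± 3.08 in bone marrow, 139.7 ± 9.03 in spleen and 88.6 ± 3.39 in blood. On the deposited scale the levels formed 3 steps. Lung exceeded liver by 0.63 on the log2 scale (SE 0.07, limma adjusted p = 4.21e-06), and spleen exceeded blood by 0.65 (adjusted p = 1.82e-06). Within a step, neighbours did not pass the test: lymph node and lung differed by 0.05 (adjusted p = 0.611), liver and bone marrow by 0.01 (0.948), and bone marrow and spleen by 0.08 (0.489). These steps did not hold once libraries were scaled to T cell genes, as described further on. There lymph node was below lung by -0.50 (1.74e-05), liver below bone marrow by -0.35 (0.000528), and bone marrow above spleen by 0.47 (3.81e-05). Scaled by the median ratio, lymph node was below lung by -0.22 (0.0194).

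Ikzf2 (Helios) was lowest in blood by a wide margin. It measured 56.35, 52.95 and 53.46 TPM in blood, 128.09, 139.92 and 115.37 in lung, and 124.10, 135.70 and 124.23 in spleen. In lymph node it measured 154.35, 142.55 and 147.33 TPM, in bone marrow 159.74, 154.87 and 159.12, and in liver 197.67, 228.72 and 188.63. The highest blood library was below the lowest library of every other site, and the lowest liver library was above the highest of every other site. The means ran from 205.0 ± 21.0 TPM in liver through 157.9 ± 2.65 in bone marrow, 148.1 ± 5.94 in lymph node, 128.0 ± 6.66 in spleen and 127.8 ± 12.3 in lung to 54.3 ± 1.83 in blood. Both ends of this order differed from their neighbour. Liver exceeded bone marrow by 0.37 (SE 0.08, adjusted p = 0.00193) and lung exceeded blood by 1.22 (adjusted p = 4.24e-09). The 3 steps between bone marrow, lymph node, spleen and lung did not pass, with log2 differences of 0.09, 0.21 and 0.0056 and adjusted p of 0.514, 0.0995 and 1. The step from lymph node to spleen passed without liver replicate 2 (0.0483) and with library weights (0.0124). Scaled to T cell genes, the difference of Ikzf2 between liver and bone marrow was 0.015 (0.895), so that call was lost, and bone marrow exceeded lymph node by 0.71 (4.41e-06).

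Ikzf3 (Aiolos) was highest in lung. It measured 264.39, 273.35 and 233.67 TPM in lung, 153.86, 203.60 and 163.46 in liver, and 163.44, 164.26 and 165.79 in lymph node. In bone marrow it measured 99.41, 91.90 and 109.31 TPM, in blood 99.00, 105.29 and 96.06, and in spleen 85.58, 94.13 and 75.96. The lung libraries lay above all others, and liver and lymph node lay above bone marrow, blood and spleen with no overlap. The means were 257.1 ± 20.8 TPM in lung, 173.6 ± 26.4 in liver, 164.5 ± 1.19 in lymph node, 100.2 ± 8.73 for bone marrow, 100.1 ± 4.72 for blood and 85.2 ± 9.09 for spleen. Lung exceeded liver by 0.57 (SE 0.10, adjusted p = 0.000481), and lymph node exceeded bone marrow by 0.71 (adjusted p = 6.84e-05). The other neighbours did not pass, with liver above lymph node by 0.07 (adjusted p = 0.685), bone marrow and blood at nearly the same level (adjusted p = 1) and blood above spleen by 0.23 (adjusted p = 0.0956). Scaled to T cell genes, the difference of Ikzf3 between lymph node and bone marrow was 0.097 (0.456), a lost call, and liver exceeded lymph node by 0.33 (0.0342).

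Ikzf1 (Ikaros) was lowest in lung. It measured 98.64, 97.91 and 82.49 TPM in lung, 123.73, 149.69 and 118.17 in spleen, and 195.93, 104.66 and 114.53 in liver. In bone marrow it measured 149.43, 159.91 and 160.14 TPM, in blood 172.58, 159.05 and 169.39, and in lymph node 201.04, 188.10 and 192.41. The lung libraries lay below all others, but liver replicate 1 lay among the lymph node libraries while the other 2 liver libraries lay below every spleen library. The means were 193.9 ± 6.59 TPM in lymph node, 167.0 ± 7.07 in blood, 156.5 ± 6.12 in bone marrow, 138.4 ± 50.1 in liver, 130.5 ± 16.8 in spleen and 93.0 ± 9.12 in lung. Spleen exceeded lung by 0.48 (SE 0.17, adjusted p = 0.0309), the one neighbouring pair of Ikzf1 that passed. Without liver replicate 1, bone marrow exceeded liver as well (0.51, 0.00101). The call between spleen and lung was lost without spleen replicate 1, spleen replicate 2 or lung replicate 3 (adjusted p of 0.0505, 0.128 and 0.11), with no filter on low values (0.055), with median-ratio scaling (0.41, 0.0631) and with T cell scaling (0.16, 0.462). With T cell scaling bone marrow exceeded liver by 0.59 (0.00767).

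Ikzf4 (Eos) was highest in lymph node, and its level was a fraction of those of Ikzf1 to Ikzf3. It measured 81.36, 93.23 and 90.10 TPM in lymph node, 52.94, 59.79 and 48.01 in spleen, and 63.94, 35.69 and 42.48 in liver. In bone marrow it measured 35.95, 38.03 and 48.61 TPM, in lung 35.22, 24.54 and 33.74, and in blood 33.34, 28.79 and 30.52. The lymph node libraries lay above all others, and the remaining sites overlapped except that blood lay below spleen, liver and bone marrow, and lung below spleen, liver and bone marrow. The means were 88.2 ± 6.15 TPM in lymph node, 53.6 ± 5.92 in spleen, 47.4 ± 14.7 in liver, 40.9 ± 6.79 in bone marrow, 31.2 ± 5.79 in lung and 30.9 ± 2.30 in blood. Lymph node exceeded spleen by 0.71 (SE 0.19, adjusted p = 0.0172). That call was lost without spleen replicate 3, lymph node replicate 2 or lymph node replicate 3 (0.64 to 0.70, adjusted p between 0.061 and 0.0709), with median-ratio scaling (0.52, 0.101) and with T cell scaling (0.48, 0.127). The other 4 neighbouring pairs did not pass, with adjusted p from 0.11 to 1. Without liver replicate 1, the steps from spleen to liver (0.0495) and from bone marrow to lung (0.0423) passed.

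Ikzf5 (Pegasus) was the least abundant member at 5 of the 6 sites, and at lung its mean rested on 1 library. It measured 64.37, 27.95 and 27.38 TPM in lung, 24.45, 34.27 and 26.62 in liver, and 22.12, 27.08 and 25.77 in lymph node. In bone marrow it measured 24.08, 18.61 and 20.71 TPM, in blood 20.03, 20.47 and 20.02, and in spleen 12.49, 19.84 and 19.62. Lung replicate 1 was more than 30 TPM above every other library, while lung replicates 2 and 3 lay within the range of liver. The means were 39.9 ± 21.2 TPM in lung, 28.4 ± 5.16 in liver, 25.0 ± 2.57 for lymph node, 21.1 ± 2.76 for bone marrow, 20.2 ± 0.257 for blood and 17.3 ± 4.18 for spleen. No neighbouring pair passed the test (adjusted p from 0.298 to 0.921). Over all 6 members, 8 of 30 neighbouring pairs passed. These pairs were picked as adjacent in the same means, so the count is not like a share of all genes. Some of the 30 pairs include blood, for which shares are given by direction further below on either scale. The shares that follow are for pairs without blood. Among all genes tested, either-direction calls ran to 14.3% between spleen and lymph node, 24.1% between spleen and bone marrow, 31.3% between spleen and liver, 40.8% between spleen and lung, 22.5% between lymph node and bone marrow, 31.1% between lymph node and liver, 42.3% between lymph node and lung, 34.5% between bone marrow and liver, 43.5% between bone marrow and lung, and 34.9% between liver and lung. With T cell scaling 17 of the 30 pairs passed, and the shares of all genes in the same order of pairs were 10.7%, 46.8%, 30.8%, 40.8%, 52.7%, 26.2%, 43.3%, 51.3%, 45.1% and 39.2%.

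Blood was then set against each of the other 5 sites. Foxp3 and Ikzf2 were lower in blood than at all 5 sites, and their levels in blood did not overlap with those of any site. For Foxp3 the log2 differences, blood minus site, were -0.65 to spleen, -1.42 to lymph node (adjusted p = 1.50e-10), -0.73 to bone marrow (8.10e-07), -0.74 to liver (3.60e-07) and -1.37 to lung (2.30e-10), each with an SE of 0.07. For Ikzf2 they were -1.22 to spleen (4.93e-09), -1.43 to lymph node (6.63e-10), -1.52 to bone marrow (9.16e-10), -1.89 to liver (2.58e-11) and -1.22 to lung, each with an SE of 0.08. Ikzf3 was lower in blood than in lymph node by -0.71 (4.35e-05), liver by -0.78 (1.63e-05) and lung by -1.35 (2.82e-08), with an SE of 0.10. Against spleen (0.23, 0.0956) and bone marrow (0.00, 1) it did not pass, and the spleen difference passed without spleen replicate 2 (0.0491) or liver replicate 2 (0.0412), with median-ratio scaling (0.28, 0.0478) and with library weights (0.0374). Ikzf4 was lower in blood than in spleen by -0.77 (0.00381), lymph node by -1.48 (9.29e-06) and liver by -0.56 (0.0252), with an SE of 0.19. Its difference to bone marrow was -0.38 (0.141) and to lung 0.00 (1). The liver call for Ikzf4 was lost without liver replicate 1 (-0.33, 0.127), blood replicate 2 (0.0811) or blood replicate 3 (0.0638), and with library weights (0.1). With library weights the difference of Ikzf4 to bone marrow passed (-0.39, 0.00742).

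Ikzf1 went the other way in 1 comparison. It was higher in blood than in lung by 0.84 (SE 0.17, adjusted p = 0.000674), and its differences to the other 4 sites ran from -0.21 to lymph node to 0.36 to spleen (adjusted p from 0.114 to 0.75). Without liver replicate 1, the difference of Ikzf1 between blood and liver was 0.60 (0.000181) in place of 0.33 (0.142) and passed, and that between blood and spleen passed too (0.36, 0.00449). With library weights Ikzf1 was lower in blood than in lymph node (-0.21, 0.0131) and higher than in spleen (0.36, 0.00642). Ikzf5 passed against lung, at -0.83 (SE 0.26, adjusted p = 0.0174), and this call was lost without lung replicate 1 (-0.44, 0.0801). Its differences to the other sites ran from -0.46 to 0.24 and did not pass, although without lung replicate 1 the difference to liver did (-0.46, 0.0422). Counted by site, blood was lower for 3 of the 6 members against spleen (15.3% of all genes tested), 4 against lymph node (21%), 2 against bone marrow (18.8%), 4 against liver (16.1%) and 4 against lung (17.3%). In limma, blood was higher for 1 of 6 members against lung (26.4% of all genes) and for 0 against spleen (20.1%), lymph node (16.4%), bone marrow (13%) and liver (23.3%). At an unadjusted p under 0.05, 2 members, Ikzf1 and Ikzf3, were higher in blood than in spleen, and 0 were higher than in lymph node, bone marrow or liver.

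Since TPM is a share of each library, the same contrasts were also read after every library was set to the same mean log2 level of the 20 general T cell genes. That mean lay between 7.55 and 7.58 in the blood libraries, 8.11 to 8.14 in bone marrow, 8.16 to 8.21 in lung, 8.46 to 8.49 in liver, 8.50 to 8.53 in spleen and 8.73 to 8.75 in lymph node. On the T cell scale the median gene was higher in blood by 0.94 against spleen, 1.02 against lymph node, 0.45 against bone marrow, 0.98 against liver and 0.75 against lung. On the deposited scale the same medians were 0.00, -0.15, -0.11, 0.07 and 0.12. Calls higher in blood therefore rose to 66.5%, 72.7%, 36.2%, 69.6% and 55.6% of all genes in that order of sites, and calls lower in blood fell to 1.56%, 1.01%, 5.89%, 3.24% and 6.12%. The part that RNA of other cells has in the difference between the scales was not tested.

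Ikzf2 was lower in blood than at all 5 sites on both scales. Its T cell scaled differences were -0.28 to spleen (SE 0.08, adjusted p = 0.00792), -0.26 to lymph node (0.0114), -0.97 to bone marrow (1.57e-07), -0.98 to liver (4.86e-08) and -0.59 to lung (1.69e-05). Foxp3 changed direction. It was higher in blood than in spleen by 0.29 (SE 0.07, adjusted p = 0.00124) and in liver by 0.17 (0.0316), and stayed lower than in lymph node by -0.25 (0.00387), bone marrow by -0.17 (0.047) and lung by -0.74 (1.19e-07). Ikzf1 became higher in blood than at all 5 sites, by 1.30, 0.96, 0.65, 1.24 and 1.47 against spleen, lymph node, bone marrow, liver, then lung (adjusted p from 1.45e-06 to 0.00486). Both Ikzf1 and Ikzf3 are also expressed by B cells and other leukocytes, whose markers are given above, and the part of such RNA in these values was not tested.

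Ikzf3 stayed lower in blood than in lung on the T cell scale, by -0.73 (SE 0.11, adjusted p = 2.72e-05), and turned higher than in spleen by 1.18 (1.08e-07), lymph node by 0.46 (0.00138) and bone marrow by 0.56 (0.000567). Its difference to liver was 0.13 (0.281). Ikzf4 kept no lower call, with -0.31 to lymph node (0.136) and 0.17 to spleen (0.425), and was higher in blood than in lung by 0.63 (0.0087). Ikzf5 was higher in blood than in spleen by 1.18 (0.00134) and lymph node by 0.88 (0.00938), and its difference to lung was -0.21 (0.52). Of the 6 members, lower calls in blood numbered 1, 2, 2, 1 and 3 in the same order of sites, and higher calls 4, 3, 2, 2 and 2. Beside these, 1.56%, 1.01%, 5.89%, 3.24% and 6.12% of all genes were lower and 66.5%, 72.7%, 36.2%, 69.6% and 55.6% higher.

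**Figure D2:**
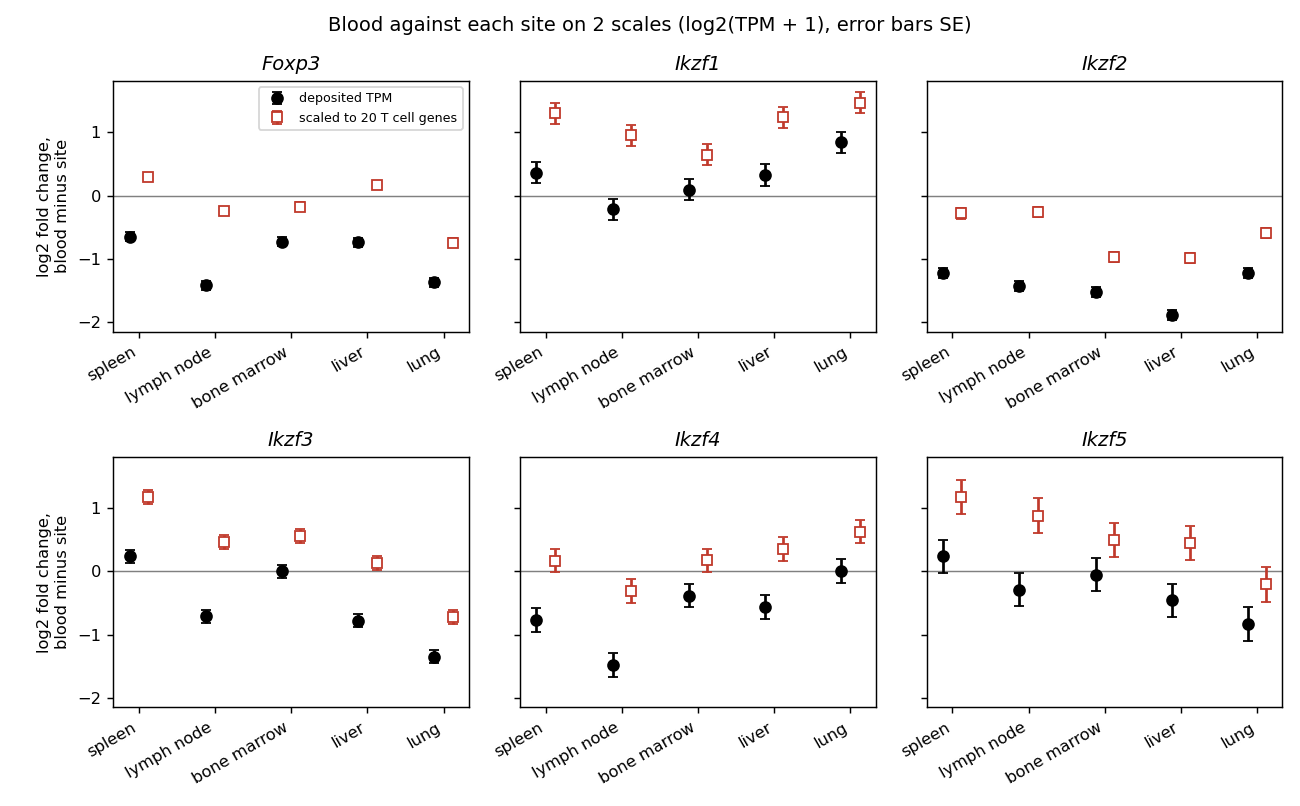
Log2 difference of each member between blood and each of 5 sites (y axis, 0 is no difference; x axis, site), from log2(TPM + 1) with the SE as error bar. Filled circles are deposited TPM and open squares the same libraries scaled to 20 T cell genes. Ikzf2 is below 0 at all 5 sites on both scales, and Foxp3 crosses 0 against spleen and liver.

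Ratios to Foxp3 within a library do not depend on the TPM total. RNA of other leukocytes, which also express Ikzf1 and Ikzf3, could enter these ratios, and its part was not tested. Ikzf1 stood at 1.89 ± 0.118 (SD, n = 3) transcripts per Foxp3 transcript in blood, against 1.06 ± 0.0504 in bone marrow, 0.933 ± 0.0726 in spleen, 0.916 ± 0.246 in liver, 0.813 ± 0.0245 in lymph node and 0.404 ± 0.0452 in lung. The lowest blood library, at 1.80, was above the highest library elsewhere, at 1.19 in liver, and the highest lung library, at 0.444, was below every other library. In the fit relative to Foxp3, Ikzf1 was higher in blood than at all 5 sites, by 2.21 (lung), 1.20 (lymph node), 1.06 (liver), 1.01 (spleen) and 0.82 (bone marrow) on the log2 scale (SE 0.14, adjusted p from 6.97e-10 to 0.000143). Called against Foxp3, 50.8% of all genes differed between blood and spleen, 83.4% between blood and lymph node, 50.8% between blood and bone marrow, 64.9% between blood and liver and 85.5% between blood and lung. A call on this scale is therefore the common outcome where Foxp3 itself differs most.

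Ikzf2 per Foxp3 transcript was 1.38 ± 0.174 in liver, 1.07 ± 0.0373 in bone marrow, 0.917 ± 0.0223 in spleen, 0.621 ± 0.022 in lymph node, 0.613 ± 0.0417 in blood and 0.555 ± 0.0506 in lung. Blood therefore overlapped with lymph node and lung, from which it differed by -0.01 (SE 0.09, adjusted p = 0.896) and 0.15 (0.137). It was lower than spleen by -0.57 (7.90e-05), bone marrow by -0.80 (3.49e-06) and liver by -1.16 (3.11e-08). Ikzf3 per Foxp3 was 1.18 ± 0.224 in liver, 1.13 ± 0.0784 in blood and 1.12 ± 0.0977 in lung, which overlapped. It was 0.69 ± 0.00601 in lymph node, 0.68 ± 0.0737 in bone marrow and 0.61 ± 0.0524 in spleen, and none of these 9 libraries reached the first 3 sites. Blood exceeded spleen by 0.88 (SE 0.12, adjusted p = 1.87e-05), lymph node by 0.71 (8.90e-05) and bone marrow by 0.73 (0.00015).

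Ikzf4 per Foxp3 transcript was lowest in lung. Spleen libraries (0.348 to 0.402) and bone marrow libraries (0.243 to 0.337) did not overlap. Outside lung the ratio ran by library from 0.241 in liver to 0.402 in spleen. It stood at 0.383 ± 0.0306 in spleen, 0.370 ± 0.0276 in lymph node, 0.349 ± 0.0359 in blood, 0.315 ± 0.0733 in liver and 0.278 ± 0.0517 in bone marrow, which overlapped in part, and at 0.136 ± 0.0287 in lung. The highest lung library, at 0.159, was below the lowest of every other site, at 0.241 in liver. Blood exceeded lung by 1.37 (SE 0.18, adjusted p = 3.73e-06), and its differences to the other 4 sites ran from -0.12 to 0.35 and did not pass (adjusted p from 0.123 to 0.731). Ikzf5 per Foxp3 was 0.228 ± 0.00927 in blood and 0.105 ± 0.0113 in lymph node, a difference of 1.13 (SE 0.27, adjusted p = 0.00148). Blood also exceeded spleen, at 0.123 ± 0.0251, by 0.89 (0.0132), and that call was lost without spleen replicate 1 (0.72, 0.0613). Against lung it did not pass (0.53, 0.0792), but did without lung replicate 1 (0.96, 0.000396). Against bone marrow it missed the threshold (0.67, 0.0517) and passed without liver replicate 1 or 2 or any 1 of the lung libraries (0.00496 to 0.0499), with no filter (0.04) or with library weights (0.000796). Relative to Foxp3 and with library weights, Ikzf4 was higher in blood than in bone marrow (0.34, 0.0165).

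**Figure D3:**
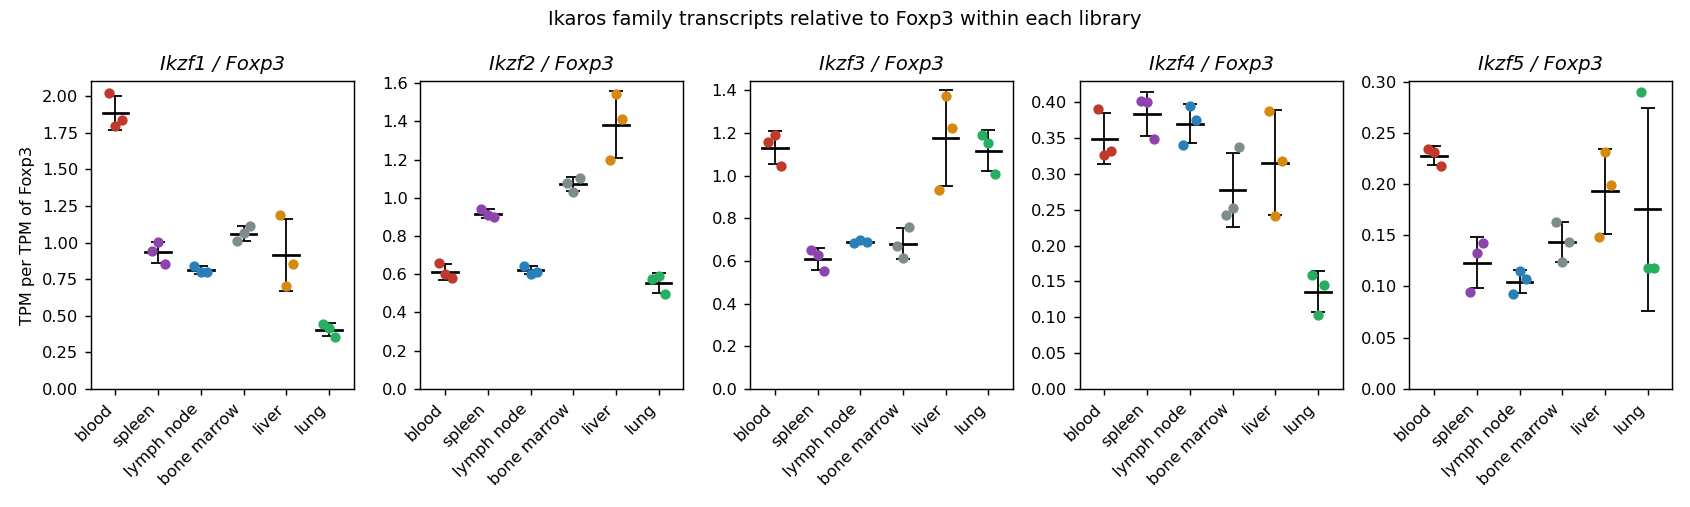
Transcripts of Ikzf1 to Ikzf5 per transcript of Foxp3 (y axis, TPM over TPM, from 0, a separate scale for each gene) by site (x axis). Points are the 3 libraries, horizontal lines the mean and error bars the SD. Ikzf1 is highest in blood at 1.89 and lowest in lung at 0.404, and Ikzf4 is lowest in lung at 0.136.

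The make-up of the family also differed by site. Ikzf1 to Ikzf5 together came to 372.4 ± 7.81 TPM in blood, 414.7 ± 39.1 in spleen, 476.6 ± 18.6 in bone marrow, 549.0 ± 50.6 in lung, 592.8 ± 51.5 in liver and 619.6 ± 3.86 in lymph node. Ikaros transcripts led in blood, where Ikzf1 made up 44.8% ± 1.28 of the family, and took 16.9% ± 0.375 in lung. They led in lymph node as well, with Ikzf1 at 31.3% ± 0.908 and Ikzf3 next at 26.5% ± 0.246. Aiolos transcripts led in lung, with Ikzf3 at 46.9% ± 1.93 against 20.5% ± 0.89 in spleen, the lowest. Helios transcripts led in liver, with Ikzf2 at 34.7% ± 3.33 against 14.6% ± 0.185 in blood, the lowest. The liver share of Ikzf2 (31.1% to 37.7%) overlapped with bone marrow (32.0% to 34.1%) and spleen (29.6% to 32.2%). In liver replicate 1 the lead was slight, with Ikzf2 at 197.67 TPM and Ikzf1 at 195.93. In bone marrow and spleen Ikzf1 and Ikzf2 took nearly equal shares, 32.9% and 33.2% in bone marrow and 31.4% and 31.0% in spleen. Eos transcripts had their largest shares in lymph node (Ikzf4, 14.2% ± 1.06) and spleen (12.9% ± 0.429), and Ikzf5 took 4.03% to 7.14% at every site. The blood share of Ikzf1, the blood share of Ikzf2 and the lung share of Ikzf3 did not overlap with any other site. The lung share of Ikzf1 reached 17.4%, above the lowest liver library at 17.2%. Other leukocytes also express Ikzf1 and Ikzf3, and the part of their RNA in these shares was not tested. Summed myeloid markers averaged 27013 TPM in blood and 1675 in lung, and B cell markers 691 and 146.

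**Figure D4:**
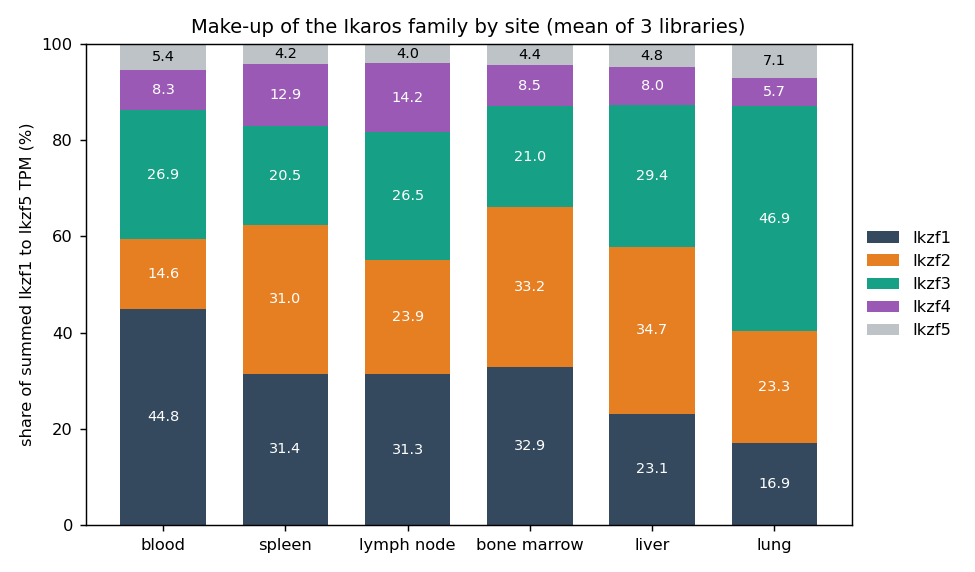
Share of each member in the summed TPM of Ikzf1 to Ikzf5 (y axis, percent, 0 to 100) at each site (x axis), as the mean of 3 libraries with its value printed in the bar. Ikzf1 is the largest part in blood at 44.8% and in lymph node at 31.3%, Ikzf3 in lung at 46.9% and Ikzf2 in liver at 34.7%.

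Genes that overlap a member on the map could share reads with it, and how strand was used in counting is not given in the sources used here. At the Foxp3 locus, Flicr, a long noncoding RNA on the same strand that is described as a brake on Foxp3, was highest in mean in liver (7.42 to 13.28 TPM) and lymph node (9.29 to 12.16 TPM) and lowest in bone marrow (3.06 to 3.91 TPM). Blood, at 6.36 ± 0.308 TPM, lay above spleen at 5.20 ± 1.12 in mean, so Flicr did not have its lowest level in blood as Foxp3 did. On the opposite strand, Ppp1r3f and Ccdc22 had their lowest means in blood (9.49 and 19.6 TPM) and their highest in lung (21.05 and 30.9 TPM). Gm36995, also on that strand, was lowest in spleen (1.58 TPM). The part of such reads in the level of Foxp3 was not tested. Within Ikzf2, the antisense gene Gm29114 and the intronic genes Gm29112 and Gm28112 were all near the lower end of measurement. Gm29114 was at 0.373 ± 0.137 TPM in blood and 4.54 ± 0.856 in liver, its lowest and highest sites, as for Ikzf2 itself. Gm29112 and Gm28112 also had their lowest mean in blood (0.203 and 0.363 TPM) and their highest in liver (2.37 and 2.85 TPM). Pstk, a kinase gene on the strand opposite to Ikzf5, had site means of 24.5 to 41.5 TPM, in the range of Ikzf5 or above it, and the level of Ikzf5 is uncertain for that reason.

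The genes whose site profile was most like each member's were found from the 6 site means of log2(TPM + 1), each centred on its own mean, among 10288 genes. Likeness is the root mean square log2 difference between 2 profiles, and the median gene stood at 0.446 to 0.706 from a member. For Ikzf4 the closest gene was Foxp4, another forkhead factor, at 0.0639, with 87.7 ± 2.68 TPM in lymph node and 28.7 ± 4.54 in lung, followed by Jak3, the kinase of the common cytokine receptor chain, at 0.118, and Ephb6 at 0.133. For Ikzf5 they were Atxn7 at 0.0295, Kif1b at 0.066 and Tsc22d2 at 0.0671, and for Ikzf1 Uvssa at 0.0564, Tmem63b at 0.0569 and Ucp2 at 0.0576. For Foxp3 they were Zfp777 at 0.145, Ttc3 at 0.164 and Tnip1 at 0.172. For Ikzf3 they were Prrc2c at 0.142, Paxbp1 at 0.166 and AC098880.2 at 0.169, and for Ikzf2 Tedc1 at 0.166, Spata5 at 0.184 and Kctd17 at 0.186. Among the members themselves, Ikzf3 and Ikzf5 were closest, at 0.227, with Ikzf5 at rank 28 of the genes compared with Ikzf3. Without lung replicate 1, which carries the lung peak of Ikzf5, that value was 0.332 at rank 273. Atxn7, Kif1b and Tsc22d2 were then at 0.148, 0.199 and 0.152 from Ikzf5, at ranks 156, 505 and 170 of 10309 genes. Their place as the closest 3 therefore rests on that library. Elmo1 (0.0501), Esyt2 (0.0552) and Npat (0.0598) were closest without it. Ikzf1 and Ikzf3 were farthest apart, at 0.776.

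Factors that act on the Foxp3 gene came next, as a list of 22 transcription factors and chromatin enzymes, all of which passed the F test. That test was passed by 68% of all genes, the share to set beside the lists that follow too. Blood was higher for 7 and lower for 7 against spleen, 2 and 15 against lymph node, 5 and 7 against bone marrow, 2 and 13 against liver, and 6 and 13 against lung. Among all genes, higher calls took 20.1%, 16.4%, 13%, 23.3% and 26.4% at these sites, and lower calls 15.3%, 21%, 18.8%, 16.1% and 17.3%. The lower count against spleen was 4 without spleen replicate 3, and the higher count was 1 against lymph node without lymph node replicate 3 or blood replicate 2 or 3, and 3 against bone marrow without bone marrow replicate 3 or blood replicate 2. Scaled by the median ratio, higher and lower calls were 8 and 4 against spleen, 3 and 8 against lymph node, and 10 and 7 against bone marrow. With abundant RNA removed, 1 was higher than in lymph node. The list's median differences were 0.0068, -0.38, -0.04, -0.41 and -0.50, beside 0.00, -0.15, -0.11, 0.07 and 0.12 over all genes. Medians of the lists that follow are read against these same values over all genes. Nr4a3, an orphan nuclear receptor induced by antigen receptor signals, was lower in blood than at all 5 sites, at 2.12 TPM in blood against 142 in lung (-5.52, adjusted p = 2.12e-14). Its difference to bone marrow was -0.67 (0.000542), and on the T cell scale -0.12 (0.476), a lost call. Its relative Nr4a1 was instead higher in blood than in lymph node by 1.40 (2.22e-12) and lower than in liver by -2.39 (3.86e-15), where it averaged 3290 TPM. Gata3, which binds the Foxp3 locus, was lower in blood at all 5 sites on the deposited scale, by -0.82 against spleen to -2.64 against lung. Its differences to spleen and lymph node were 0.12 and 0.24 on the T cell scale. Foxo3, a forkhead activator of Foxp3, was higher in blood than at all 5 sites, by 0.34 to 0.87. Its calls were lost against lymph node without lymph node replicate 3 or blood replicate 2 or 3 (0.0589 to 0.0733) or with abundant RNA removed (0.0522), and against bone marrow without any 1 of the libraries of blood or bone marrow (0.0509 to 0.107). The list was mostly higher in blood on the T cell scale, with 19, 18, 14, 13 and 9 of 22 genes in the same order of sites against 1, 1, 3, 3 and 9 lower. On that scale 66.5%, 72.7%, 36.2%, 69.6% and 55.6% of all genes were higher, as given above, and such counts for this list and those that follow are read against these shares.

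Genes that Foxp3 activates in Treg cells formed a list of 14, and all passed the F test. Blood was lower for 13 against spleen, 13 against lymph node, 9 against bone marrow, 11 against liver and 8 against lung, and higher for 1, 1, 4, 2 and 3. Over all genes, 15.3%, 21%, 18.8%, 16.1% and 17.3% were lower and 20.1%, 16.4%, 13%, 23.3% and 26.4% higher. The list's median differences were -0.77, -1.33, -0.66, -1.13 and -1.60, beside 0.00, -0.15, -0.11, 0.07 and 0.12 over all genes. Tigit, an inhibitory receptor, stood at 15.2 ± 1.83 TPM in blood against 138 to 453 TPM elsewhere (-3.11 to -4.81). The costimulatory receptors Tnfrsf4 (OX40) and Tnfrsf18 (GITR) were lower in blood at all 5 sites as well, by -1.66 to -3.53 and by -1.27 to -2.60. Itgae, the CD103 integrin chain, was lower in blood at all 5 sites, most of all against lymph node (-3.85, adjusted p = 2.20e-12). Entpd1, the ectoenzyme CD39, was instead higher in blood at all 5 sites, by 0.97 to 2.24, with 78.5 ± 7.29 TPM. Gpr83 was higher in blood than in lung by 1.79 (1.60e-07) and lower than in lymph node by -1.01 (9.38e-05). On the T cell scale, lower and higher calls were 6 and 6 against spleen, 6 and 2 against lymph node, 7 and 6 against bone marrow, 8 and 5 against liver, and 8 and 6 against lung.

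Genes that Foxp3 represses numbered 9, with Tcf7 and Satb1 also on other lists here, and all 9 passed the F test. Blood was lower for 4, 3, 3, 6 and 6 and higher for 3, 3, 2, 2 and 2, again in that order of sites. Depending on the site, 15.3% to 21% of all genes were lower and 13% to 26.4% higher. The higher count against liver was 1 without liver replicate 1 or any 1 of the blood libraries, with no filter or with library weights. Median differences were -0.32, -0.01, 0.03, -1.08 and -1.18. Ptpn22, a phosphatase of antigen receptor signalling, was lower in blood at all 5 sites, by -0.30 to -2.09. The bone marrow call was lost without bone marrow replicate 1 or 3 or blood replicate 2 or 3 (0.0626 to 0.0815) and with median-ratio scaling (-0.11, 0.442). The differences of Ptpn22 to spleen, lymph node and bone marrow were 0.42, 0.52 and 0.25 on the T cell scale, and that to liver was -0.17 (0.124), a lost call. Cd40lg, the CD40 ligand, was lower at all 5 sites by -0.63 to -1.98. Its spleen call was lost without spleen replicate 1 or 3 or blood replicate 1 or 3 (0.0567 to 0.0949), and on the T cell scale that difference was 0.31 (0.211). The lymph node and bone marrow calls of Cd40lg were lost on that scale too (-0.084, 0.727, and -0.26, 0.37). Id2 was higher in blood than in lymph node by 1.17 (1.64e-08) and lower than in lung by -1.77 (1.20e-10). Il4 was listed at 0 in all 3 lung libraries and stood at 3.55 TPM in blood. Of the 9 genes, 5, 8, 6, 4 and 2 were higher in blood on the T cell scale, and 4 against liver and 6 against lung were lower.

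Partners of the Foxp3 protein formed a list of 16, of which 14 passed the F test. Blood was lower for 6, 8, 5, 7 and 7 and higher for 5, 2, 2, 1 and 3 in the same order of sites. Shares of all genes ran from 15.3% to 21% lower and from 13% to 26.4% higher. The higher count against spleen was 3 without spleen replicate 1 or 3 or blood replicate 1, that against lymph node 1 without lymph node replicate 1 or 2 or blood replicate 1, and that against liver 2 without liver replicate 1 or 3. With abundant RNA removed 2 were higher than in spleen, and with library weights 8 were lower than in bone marrow. Median differences were -0.12, -0.45, -0.24, -0.21 and -0.19. Hif1a, the hypoxia factor, and Rora, a nuclear receptor, were lower in blood than at all 5 sites, by -0.73 to -3.08 and by -0.57 to -4.06. On the T cell scale both were higher in blood than in spleen (0.21 and 0.38, adjusted p of 0.0308 and 0.016) and lymph node (0.27 and 0.29, adjusted p of 0.00727 and 0.0474). The acetyltransferase gene Ep300 was higher in blood than in lung by 0.77 (0.0185), a call lost without lung replicate 3 (0.47, 0.104) or blood replicate 1 (0.75, 0.0521). Hdac9 was higher in blood than in lymph node by 0.77 (0.02), which was lost without lymph node replicate 1 or 2 or blood replicate 1 (adjusted p from 0.0508 to 0.0802). Of the 16 partners, 13, 12, 6, 11 and 8 were higher in blood on the T cell scale, and for all but spleen that is near the share of all genes (72.7%, 36.2%, 69.6% and 55.6%).

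Corepressors that bind Ikaros proteins, the NuRD, Sin3 and CtBP subunits, formed a list of 17, of which 16 passed the F test. Blood was lower for 10 against spleen, 15 against lymph node, 11 against bone marrow, 9 against liver and 3 against lung, and higher for 2 against spleen, 1 against lymph node, 2 against liver and 4 against lung. By site, 15.3% to 21% of all genes were lower and 13% to 26.4% higher. The liver count of 2 was 1 without liver replicate 1 or blood replicate 1 or 3, with abundant RNA removed or with library weights. Scaled by the median ratio, the lower counts against lymph node and bone marrow were 7 and 5. The median differences were -0.34, -0.60, -0.36, -0.25 and 0.01. Chd3, a NuRD helicase, was lower in blood than in lymph node by -1.17 (adjusted p = 1.52e-09) and higher than in lung by 0.45 (6.09e-05). Its difference to lymph node was 0.0040 (0.954) on the T cell scale. Rbbp4, a histone-binding subunit, was lower in blood than in lung by -0.61 (0.00128), and on the T cell scale the difference was 0.011 (0.943). Ctbp2 was higher in blood, at 14.0 TPM, than in lymph node, at 0.203 TPM, and lung, at 3.11 TPM (3.64 and 1.97). Of the 17 corepressor genes, 14, 12, 6, 16 and 16 were higher in blood on the T cell scale. There limma called 0 of them lower in blood at any of the 5 sites, and 0 also at an unadjusted p under 0.05. Lower calls took 1.01% to 6.12% of all genes on that scale. Against lymph node and bone marrow the counts of higher corepressor genes, 12 and 6 of 17, are near the share of all genes (72.7% and 36.2%).

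The cereblon ubiquitin ligase, through which thalidomide-like drugs mark IKZF1 and IKZF3 for destruction in human cells, had 5 listed genes, and 4 passed the F test. Blood was lower for 1 against lymph node, 2 against bone marrow, 1 against liver and 2 against lung, and higher for 1 against spleen and 1 against liver. All genes gave 15.3% to 21% lower and 13% to 26.4% higher, depending on the site. The bone marrow count was 1 without bone marrow replicate 1 or 3 or any 1 of the blood libraries, or with median-ratio scaling. The higher call against spleen was lost without spleen replicate 2, without blood replicate 1 and with abundant RNA removed, where 2 genes were lower. On the T cell scale 4, 5, 2, 5 and 3 of the 5 were higher in blood and 2 were lower than in lung. Its substrate receptor Crbn was at 247 ± 24.5 TPM in lung, 98.7 ± 3.89 in liver and 54.5 to 66.6 at the other 4 sites, and lower in blood than in lung by -1.97 (adjusted p = 1.58e-11). Ddb1, its adaptor, was lower in blood than in lung by -0.89 (4.85e-07), bone marrow by -0.51 (0.000285) and lymph node by -0.64 (2.03e-05). Against lymph node the direction of Ddb1 turned on the T cell scale (0.53, 3.75e-05). Its bone marrow call was lost there too, since 0 of the 5 genes were lower in blood than in bone marrow. Crbn and Ikzf3 both had their highest mean in lung, while Ikzf1 had its lowest mean there, at 93.0 TPM. A link between Crbn and either member was not tested.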

How the data were processed

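Per the labels' protocols, poly(A) RNA of sorted Treg cells was made into directional libraries. Each library came with a gene table of TPM values, rounded by the authors to 2 decimals. STAR, RSEM and the mm10 build stand in the submitters' processing notes, with no versions or settings. Gene symbols from GENCODE M21 matched 55141 of 55487 IDs. The members and gene lists were chosen with earlier results of these data known. Genes with a site mean of at least 1 TPM at 1 or more sites were tested (16694) with limma 3.58.1 in R 4.3.3 on log2(TPM + 1), so fold changes understate those of low genes. All 18 libraries entered 1 fit of 6 site means with trend and robust moderation. An F test covered the 5 blood contrasts, and 15 site pairs were read from the same fit. Within a contrast, p-values of all genes received Benjamini-Hochberg adjustment, and adjusted values under 0.05 were called. The fit relative to Foxp3 subtracted its log2(TPM + 1) in each library. The script was tested on simulated data. Named list genes had the largest or smallest called change against lymph node or lung, or were called in 1 direction in all 5 contrasts (at most 4 a list). A gene that this rule names is not reported here. The likeness rule took 3 genes a member, leaving out genes named only by number, with at least 10 TPM at 1 site. Alternatives were another pseudocount (0.1), no filter, 3 other scalings, library weights, a replicate block, plain moderation and each library left out. The alternatives for the gene lists were chosen after seeing the data. TPM keeps no read depth, so no counting interval is given.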

Additional observations from a re-analysis of the deposited data

How the results depend on the processing

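Of the alternatives, scaling to the T cell genes moved most. Under it, members lower in blood numbered 1 against spleen, 2 against lymph node and 1 against liver. Those higher numbered 4, 3, 2, 2 and 2 against spleen, lymph node, bone marrow, liver, then lung. Of the 30 pairs that are neighbours on the deposited scale, 17 passed, though some are not neighbours on the T cell scale. On that scale 36.2% to 72.7% of all genes were higher in blood, depending on the site, and 1.01% to 6.12% were lower. The shares for pairs of the other sites are given above. Directions turned for Foxp3 against spleen (0.29) and liver (0.17), Ikzf1 against lymph node (0.96), Ikzf3 against lymph node (0.46) and liver (0.13), Ikzf4 against spleen (0.17), bone marrow (0.17) and liver (0.35), and Ikzf5 against lymph node (0.88), bone marrow (0.50) and liver (0.45). Between neighbours they turned for Foxp3 (lymph node minus lung -0.50, liver minus bone marrow -0.35), Ikzf2 (lymph node minus spleen -0.020, spleen minus lung -0.31), Ikzf4 (liver minus bone marrow -0.18) and Ikzf5 (lymph node minus bone marrow -0.38). Among list genes they turned against spleen for Gata3 (0.12), Rora (0.38), Hif1a (0.21), Cd40lg (0.31) and Ptpn22 (0.42), against lymph node for Gata3 (0.24), Rora (0.29), Hif1a (0.27), Chd3 (0.0040), Ddb1 (0.53) and Ptpn22 (0.52), and for Ptpn22 against bone marrow (0.25) and Rbbp4 against lung (0.011).

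Median-ratio scaling gave 1 member higher in blood than in spleen and turned Ikzf1 against lymph node (0.030), Ikzf4 against lung (-0.022), Ikzf5 against bone marrow (0.13), and the neighbours Foxp3 lymph node minus lung (-0.22), Foxp3 bone marrow minus spleen (-0.062) and Ikzf2 spleen minus lung (-0.069). Removing abundant RNA classes turned Ikzf4 against lung (-0.072), Foxp3 bone marrow minus spleen (-0.14), Ikzf1 liver minus spleen (-0.055) and Ikzf2 bone marrow minus lymph node (-0.029). Library weights gave 2 members higher in blood than in spleen and turned Ikzf3 against bone marrow (-0.0051) and Ikzf2 spleen minus lung (-0.0065). They also lost the Ikzf4 call against liver (0.1) and gained calls for Ikzf1 against lymph node (-0.21) and Ikzf4 against bone marrow (-0.39), and for Ikzf2 lymph node minus spleen (0.21). In these last 3 settings every turned difference except Foxp3 lymph node minus lung was short of the threshold. The cause was not tested. Results are called the same here where direction and side of the threshold are kept, or where a count stays within 1.5 times. In this sense the other pseudocount and plain moderation left all 227 results they were run on the same. List counts could still move within that range. Corepressors lower in blood than in lymph node, 15 in the main fit, were 12 with plain moderation and 10 to 16 with each library left out.

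With each library left out, members higher in blood numbered 0 to 1 against spleen and 0 to 1 against liver. Differences that changed sign were: Ikzf3 against bone marrow -0.059 to 0.065, Ikzf4 against lung -0.16 to 0.096, Ikzf5 against bone marrow -0.14 to 0.037, Foxp3 liver minus bone marrow -0.067 to 0.085, Ikzf1 liver minus spleen -0.24 to 0.21, Ikzf2 spleen minus lung -0.065 to 0.073, Ikzf3 liver minus lymph node -0.052 to 0.15, Ikzf4 liver minus bone marrow -0.056 to 0.36 and Ikzf5 lung minus liver -0.025 to 0.58. Relative to Foxp3 they were Ikzf2 against lymph node -0.066 to 0.025, Ikzf3 against liver -0.20 to 0.080 and against lung -0.055 to 0.076, and Ikzf4 against liver -3.6e-06 to 0.33. Over all alternatives, the highest adjusted p of Ikzf2 against the 5 sites was 0.0114, and of Ikzf1 relative to Foxp3 0.00125. Libraries with the same replicate number did not deviate together (correlations -0.03 to 0.03, 9 of 18 libraries closest to their own number), and a replicate block left all 227 results it was run on the same in the sense above (list counts moved by at most 1 gene), with Ikzf2 still lower in blood than at 5 sites.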
